A study of Mus musculus with 9 samples.

Results

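The PI3K-AKT-mTOR pathway was followed here through 44 genes, picked by name from the 55359 genes of the deposited lung table: phosphoinositide 3-kinase (PI3K) subunits, the kinase AKT, the mTOR complexes, their regulators and their translation outputs. The mice were C57BL/6J males aged 6 to 8 weeks, and polyadenylated lung RNA was sequenced at day 28 after dust or saline entered the trachea. In the Silica + ATL-III group the dust was 5 mg of silica, the cause of the lung disease silicosis, and the mice also had daily intraperitoneal atractylenolide III at 30 mg/kg, a plant terpenoid from Atractylodes. The Silica group had the same 5 mg without the compound, and the Control group had saline. With 20 mice in a group, the table gives 3 libraries per group, 9 in all. No group had ATL-III without silica, the labels mention no injected vehicle, and whether a library stands for 1 mouse is not stated. P-values thus cover the spread among these libraries, part of which may be technical.

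In this pathway, PI3K makes a lipid signal in the plasma membrane below growth factor and immune receptors, and the lipid recruits the kinase AKT. AKT inhibits the tuberous sclerosis complex (TSC), which otherwise holds back the small GTPase Rheb, the direct activator of the kinase mTOR in mTOR complex 1 at the lysosome. Amino acids act through Rag GTPases that bring the complex to the lysosome, stress and low energy act as brakes through DDIT4, sestrins and AMPK, and active mTOR complex 1 promotes translation and restrains autophagy. The title of the study names signalling from the epidermal growth factor receptor to mTOR, with autophagy, in silicosis. Several of these proteins are controlled largely by phosphorylation, and the values below are of transcripts only.

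Total counts were 16047175 to 17792481 per library, and genes with at least 1 FPKM (fragments per kilobase of transcript, scaled to the library total, as deposited) in 3 or more libraries were tested, 15459 in all. All 10 lung epithelial markers checked were detected, with a summed level of 112690 to 122078 FPKM in Silica + ATL-III, 67649 to 112080 in Silica and 95411 to 110439 in Control. Silica 1 was the lowest of these. Summed levels of 10 neutrophil markers ran from 29805 to 45286 FPKM in Silica + ATL-III, from 721 to 4499 in Silica and from 548 to 3872 in Control. Within their groups, Silica 2 and Control 2 stood highest for these. For 10 macrophage markers the sums were 10434 to 13755 FPKM, 15298 to 17461 and 7784 to 9877 in the same groups, with 8 of 10 higher in Silica than in Control and 4 of 10 lower in Silica + ATL-III than in Silica. Of 7 lymphocyte markers tested, 4 were lower in Silica + ATL-III than in either other group. Of 10 fibroblast markers, 7 were lower in Silica + ATL-III than in Silica, 8 than in Control, and 2 were lower in Silica than in Control. Of 8 adipocyte markers tested, 6 were lower and 1 higher in Silica than in Control. No listed marker was at 0 in every library. In whole lung, fewer cells of a type and less RNA per cell cannot be told apart.

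Of the 44 genes, 43 were tested and 22 were called in at least 1 comparison by edgeR's quasi-likelihood test at an adjusted p under 0.05. In Silica against Control, 4 of 43 were higher and 3 lower, or 16.3%, against 16.9% of all genes tested (9.11% higher and 7.81% lower). In Silica + ATL-III against Silica, 12 were higher and 3 lower, or 34.9%, against 21.2% of all genes tested (11.2% higher and 10% lower). Against Control, Silica + ATL-III had 7 higher and 4 lower, or 25.6%, against 15.9% of all genes tested (9.14% higher and 6.71% lower). The median log2 fold changes of the 43 were -0.10, 0.09 and 0.07 in these 3 comparisons, against -0.013, -0.00034 and -0.0099 over all genes tested. The comparisons share groups, so they are not independent of one another. Only Irs1, an adaptor below the insulin receptor, was too low to test, at 0.22 to 0.91 FPKM and 35 to 135 counts over the 9 libraries. The direction split moved with scaling in both comparisons against Control. With DESeq2 size factors the calls in Silica against Control were 5 higher and 2 lower. With library totals alone the calls in Silica + ATL-III against Control were 5 higher and 6 lower. Limma on FPKM, which changes the test and the values as well as the scaling, gave 5 and 7 there and 7 and 4 in Silica + ATL-III against Silica, where DESeq2 size factors gave 12 and 3 and library totals gave 11 and 4. Single libraries moved the counts as well. The 12 higher in Silica + ATL-III against Silica became 4 without Silica + ATL-III 1, 6 without Silica + ATL-III 2, 7 without Silica 1 and 4 without Silica 3, which also left 1 lower. The 7 higher and 4 lower in Silica + ATL-III against Control became 4 and 2 without Control 3, 11 higher without Silica + ATL-III 3 and 1 lower without Silica + ATL-III 1. The 4 higher and 3 lower in Silica against Control became 2 higher without Control 1, 2 and 1 without Control 3, and 1 lower without Silica 3.

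**Figure D1:**
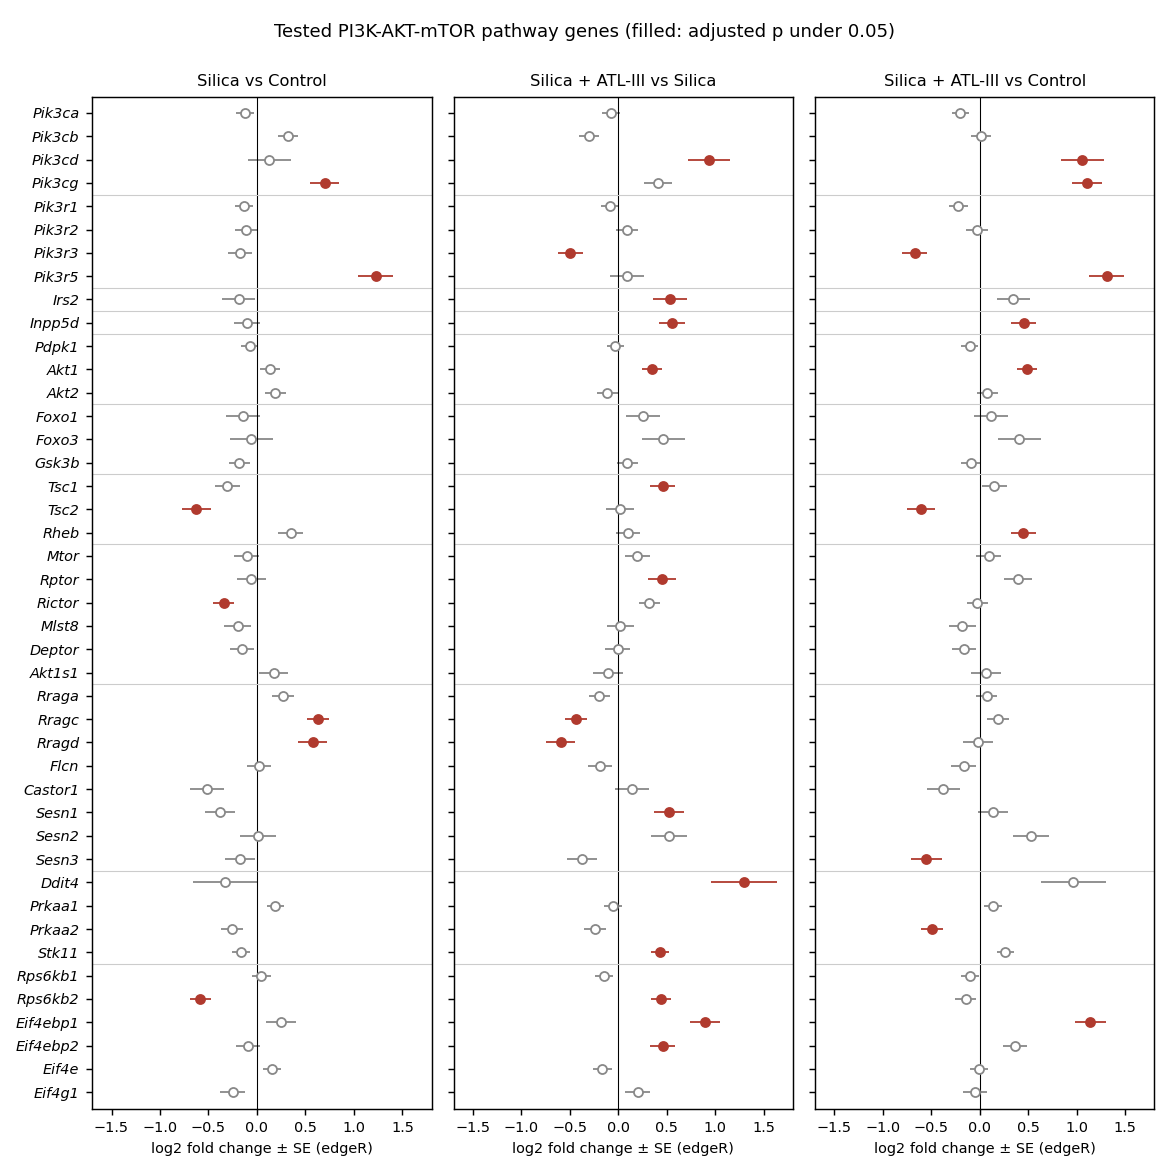
Log2 fold change (x axis, ± SE, edgeR, n = 3 per group) of the 43 tested genes, grouped by role from PI3K subunits at the top to translation outputs at the bottom, in 3 comparisons. Filled red points passed an adjusted p under 0.05: 7 genes in Silica vs Control, 15 in Silica + ATL-III vs Silica and 11 in Silica + ATL-III vs Control.

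The mTOR kinase itself was not called in any comparison. Mtor stood at 2.7, 2.81 and 2.13 FPKM in Silica + ATL-III, 1.92, 2.58 and 2.27 in Silica and 2.58, 2.57 and 2.64 in Control, so the groups overlapped. Its log2 fold changes were -0.10 ± 0.13 (edgeR adjusted p = 0.601) in Silica against Control, 0.19 ± 0.13 (edgeR adjusted p = 0.308) in Silica + ATL-III against Silica and 0.09 ± 0.13 (edgeR adjusted p = 0.684) in Silica + ATL-III against Control. The receptor named in the study title, Egfr, which is not among the 44, averaged 2.73 ± 0.800 FPKM in Silica + ATL-III, 1.92 ± 0.235 in Silica and 2.73 ± 0.201 in Control (SD, n = 3) and was not called either. In FPKM, Silica lay below Control without overlap, at -0.41 ± 0.19 (edgeR adjusted p = 0.160) on the log2 scale. Silica + ATL-III overlapped both, at 0.53 ± 0.19 (edgeR adjusted p = 0.0739) against Silica and 0.12 ± 0.19 (edgeR adjusted p = 0.723) against Control. Rptor encodes raptor, the substrate-binding subunit that defines mTOR complex 1. Rptor stood at 1.73, 1.51 and 1.18 FPKM in Silica + ATL-III, 1.16, 1.08 and 1.03 in Silica and 1.18, 1.21 and 1.26 in Control. The lowest Silica + ATL-III library lay just above the highest Silica library. In FPKM, Control overlapped Silica + ATL-III and lay above Silica, but Silica was not called against Control (-0.06 ± 0.15, edgeR adjusted p = 0.814). Rptor was higher in Silica + ATL-III than in Silica by 0.45 ± 0.15 (edgeR adjusted p = 0.0469) on the log2 scale. Rptor lost this call without Silica + ATL-III 1, Silica + ATL-III 2, Silica 1, Silica 2 or Silica 3 (edgeR adjusted p up to 0.170), and also with limma on FPKM, a fit of the 6 libraries compared, scaling by library totals alone and Silica 2 and Control 2 both left out (adjusted p up to 0.191). Rictor encodes the subunit that defines mTOR complex 2, which phosphorylates AKT. Rictor stood at 5.92, 4.95 and 5.04 FPKM in Silica + ATL-III, 3.8, 4.77 and 4.39 in Silica and 5.42, 5.96 and 6.23 in Control. It was lower in every Silica library than in any Control library, with a log2 fold change of -0.35 ± 0.11 (edgeR adjusted p = 0.0474). Rictor lost this call without Silica 1, Silica 3, Control 1, Control 2 or Control 3 (edgeR adjusted p up to 0.176), and also with DESeq2 size factors, no expression filter, edgeR's own filter and Silica 2 and Control 2 both left out (adjusted p up to 0.0861). The shared subunit gene Mlst8 and the inhibitor genes Deptor and Akt1s1 were called in no comparison, at 2.57 to 4.07, 8.89 to 13.8 and 5.42 to 8.12 FPKM over the 9 libraries. In the reference annotation GENCODE M21, 22.5% of the exonic bases of Mlst8 also belong to Bricd5 on the opposite strand.

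PI3K is built from a catalytic and a regulatory subunit. The catalytic subunits alpha and beta, encoded by Pik3ca and Pik3cb, are found in most cells, while delta and gamma, encoded by Pik3cd and Pik3cg, are mostly made by leukocytes. Pik3ca was the most abundant of the 4 per length, at 17.4 to 22.9 FPKM, and was not called in any comparison. Pik3cb was at 4.11 to 6.02 FPKM, with the 3 Silica libraries highest, and missed the threshold narrowly, with log2 fold changes of 0.32 ± 0.10 (edgeR adjusted p = 0.0501) in Silica against Control and -0.31 ± 0.10 (edgeR adjusted p = 0.0517) in Silica + ATL-III against Silica. Pik3cd stood at 6.3, 7.42 and 8.17 FPKM in Silica + ATL-III, 2.96, 5.16 and 3.58 in Silica and 2.83, 5.11 and 3.51 in Control. Every Silica + ATL-III library was above every library of the other groups. Pik3cd rose by 0.93 ± 0.22 (edgeR adjusted p = 0.0113) on the log2 scale in Silica + ATL-III against Silica and by 1.06 ± 0.22 (edgeR adjusted p = 0.00664) against Control. Pik3cg stood at 3.48, 2.69 and 3.77 FPKM in Silica + ATL-III, 2.56, 2.48 and 2.55 in Silica and 1.47, 1.95 and 1.6 in Control. Here both silica-treated groups stood above Control without overlap, and Silica + ATL-III also lay above Silica in every library. The log2 fold change was 0.70 ± 0.15 (edgeR adjusted p = 0.0131) in Silica against Control, 1.10 ± 0.15 (edgeR adjusted p = 0.000522) in Silica + ATL-III against Control and 0.41 ± 0.15 (edgeR adjusted p = 0.0690) in Silica + ATL-III against Silica, the last short of the threshold. Pik3cg lost its Silica against Control call without Control 1 or Control 3 (edgeR adjusted p up to 0.0553).

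Pik3r5 encodes a regulatory partner of the gamma subunit, which couples it to chemokine and other G protein-coupled receptors. Pik3r5 stood at 7.92, 6.93 and 7.3 FPKM in Silica + ATL-III, 7.24, 5.73 and 8.13 in Silica and 2.62, 4.22 and 2.88 in Control. The silica-treated groups overlapped each other and both lay above Control. This was the largest change of any of the 43 genes in Silica against Control, at 1.22 ± 0.18 (edgeR adjusted p = 0.00203) on the log2 scale, and Silica + ATL-III against Control gave 1.31 ± 0.18 (edgeR adjusted p = 0.000569). Pik3r3 encodes a regulatory subunit of class IA PI3K and moved the opposite way. Pik3r3 stood at 4.98, 4 and 4.16 FPKM in Silica + ATL-III, 5.17, 6.78 and 6.89 in Silica and 7.65, 6.98 and 8.09 in Control. Its Silica + ATL-III libraries were below all others, with log2 fold changes of -0.50 ± 0.13 (edgeR adjusted p = 0.0189) against Silica and -0.67 ± 0.13 (edgeR adjusted p = 0.00453) against Control. Against Silica, Pik3r3 lost its call without Silica + ATL-III 2 or Silica 3 (edgeR adjusted p up to 0.0785). In GENCODE M21, 24.3% of the exonic bases of Pik3r3 are shared with Gm49337 on the same strand, so its counts are uncertain. The most abundant regulatory gene, Pik3r1, at 8.58 to 12.4 FPKM, and Pik3r2, at 4.06 to 5.54 FPKM, were called in no comparison.

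**Figure D2:**
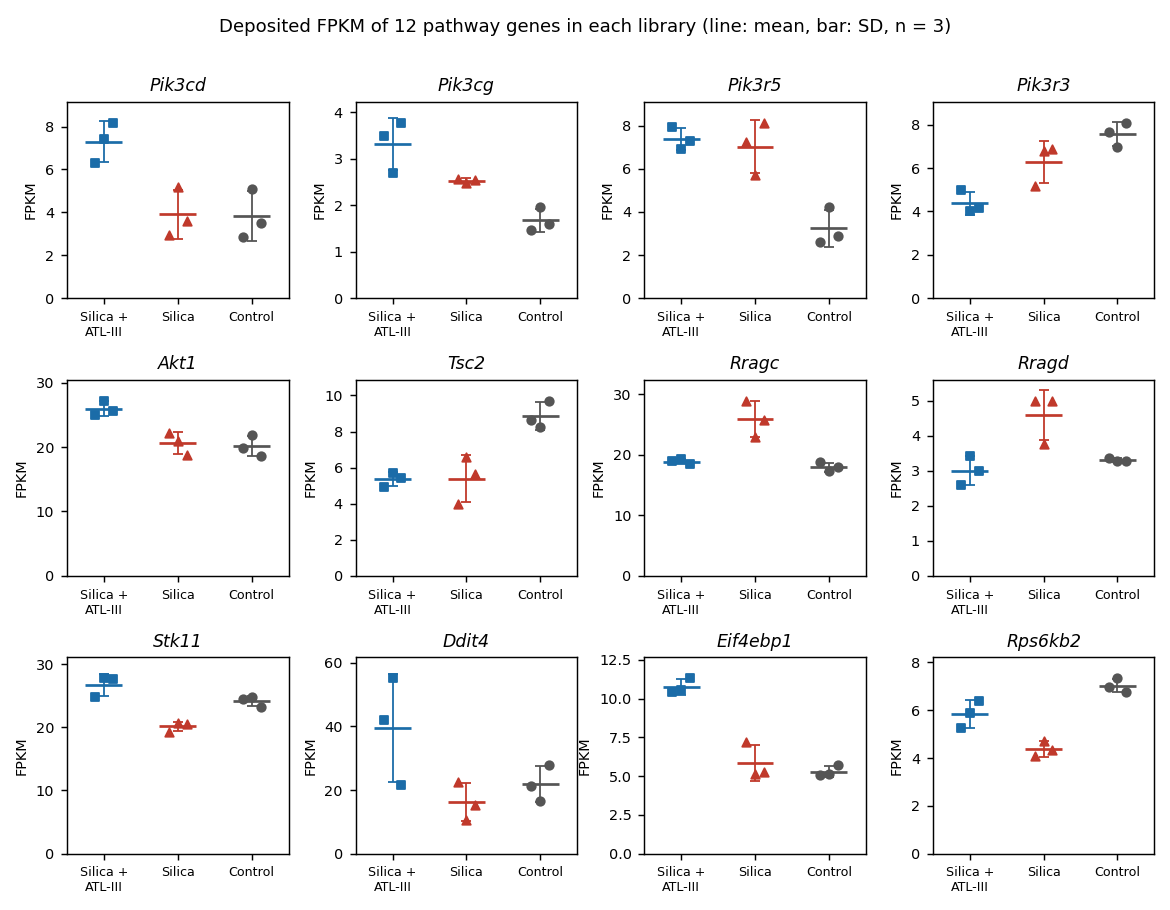
Deposited FPKM (y axis, from 0) of 12 pathway genes in each library of Silica + ATL-III, Silica and Control, with the mean as a line and the SD as a bar (n = 3). Pik3cd and Eif4ebp1 are highest in all 3 Silica + ATL-III libraries, Rragc and Rragd in all 3 Silica libraries, and Tsc2 and Rps6kb2 in all 3 Control libraries.

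Markers of leukocytes moved with some of these subunits and not with others. Of 8 general leukocyte markers, 5 were higher in Silica than in Control, 7 were higher in Silica + ATL-III than in Control, and 3 were higher and 1 lower in Silica + ATL-III than in Silica. Their summed levels were 585 to 824 FPKM in Silica + ATL-III, 448 to 646 in Silica and 201 to 333 in Control. All 10 neutrophil markers were higher in Silica + ATL-III than in Silica and than in Control, and 1 of 10 was higher in Silica than in Control. Pik3cd was not called in Silica against Control, at 0.13 ± 0.22 (edgeR adjusted p = 0.721), the comparison in which 5 leukocyte markers were higher. Pik3r5 was not called in Silica + ATL-III against Silica, at 0.09 ± 0.18 (edgeR adjusted p = 0.768), the comparison in which all 10 neutrophil markers were higher, and Pik3r3 fell there. Within Silica and within Control, the library with the highest neutrophil sum also had the highest Pik3cd. In Silica 2 and Control 2, with neutrophil sums of 4499 and 3872 FPKM, Pik3cd was at 5.16 and 5.11 FPKM, while the other Silica and Control libraries, with sums of 548 to 1922, had 2.83 to 3.58 FPKM. Pik3r5 was ordered in this way within Control, at 4.22 FPKM in Control 2 against 2.62 and 2.88 in Control 1 and Control 3. Within Silica it was not, since Silica 3 combined the highest Pik3r5 level of 8.13 FPKM with a neutrophil sum of 721. Silica 2 and Control 2 were picked for their neutrophil sums after the data were seen. Silica 2 also had the highest Pik3cd of the Silica libraries, so a larger difference without it was fixed in advance. Without both libraries, the log2 fold change of Pik3cd was 1.16 ± 0.16 (edgeR adjusted p = 0.000865) in Silica + ATL-III against Silica. The part of leukocyte number in these results was not tested.

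**Figure D3:**
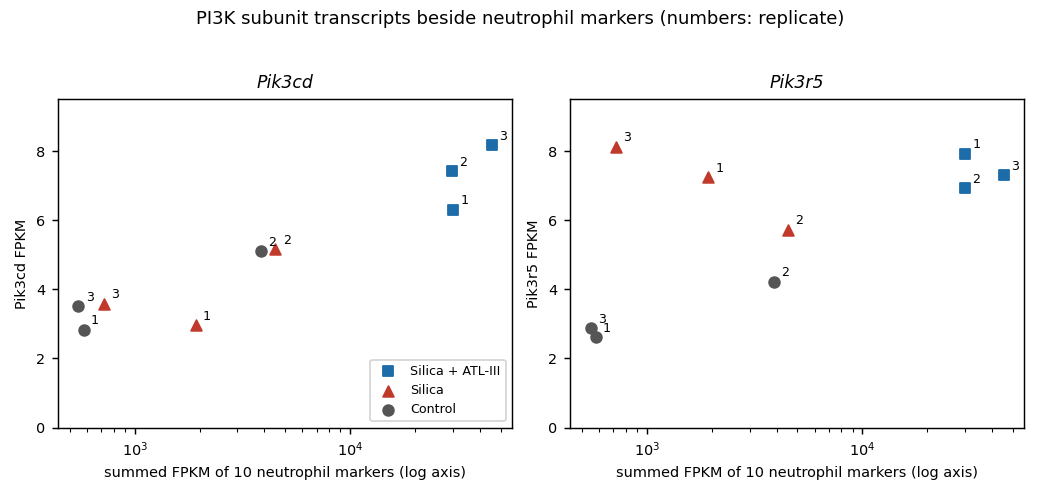
FPKM of Pik3cd (left) and Pik3r5 (right) against the summed FPKM of 10 neutrophil markers (log axis), 1 point per library, numbered by replicate. Silica 2 and Control 2 stand between the other Silica and Control libraries and the Silica + ATL-III libraries for Pik3cd, whereas for Pik3r5 the Silica + ATL-III and Silica libraries overlap.

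Irs2 encodes an adaptor that links insulin and growth factor receptors to PI3K. Irs2 stood at 6.15, 6.6 and 4.55 FPKM in Silica + ATL-III, 4.44, 3.4 and 4.25 in Silica and 4.07, 5.78 and 4.96 in Control. Silica + ATL-III was above Silica in every library and overlapped Control, with a log2 fold change of 0.53 ± 0.17 (edgeR adjusted p = 0.0465) against Silica. Irs2 lost this call without Silica + ATL-III 1, Silica + ATL-III 2, Silica 1, Silica 2 or Silica 3 (edgeR adjusted p up to 0.163), and also with limma on FPKM, a fit of the 6 libraries compared and Silica 2 and Control 2 both left out (adjusted p up to 0.104). Inpp5d encodes SHIP1, the blood-cell phosphatase that removes a phosphate from the PI3K lipid product. Inpp5d stood at 7.36, 6.69 and 5.38 FPKM in Silica + ATL-III, 4.18, 4.27 and 5 in Silica and 4.84, 5.86 and 4.74 in Control. It rose by 0.55 ± 0.13 (edgeR adjusted p = 0.0136) on the log2 scale against Silica, with no overlap, and by 0.45 ± 0.13 (edgeR adjusted p = 0.0392) against Control, where the lowest Silica + ATL-III library lay below the highest Control library. Of the 8 leukocyte markers, 7 were higher in Silica + ATL-III than in Control as well, and their part in this result was not tested. Against Silica, Inpp5d lost its call without Silica + ATL-III 1 (edgeR adjusted p = 0.0549). Against Control it was lost without Silica + ATL-III 1, Silica + ATL-III 2, Control 1 or Control 3 (edgeR adjusted p up to 0.147), and also with limma on FPKM and scaling by library totals alone (adjusted p up to 0.148).

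Akt1 was the more abundant of the 2 AKT genes per length and the only one called. Akt1 stood at 24.9, 27.2 and 25.7 FPKM in Silica + ATL-III, 22.2, 20.9 and 18.8 in Silica and 19.9, 21.8 and 18.7 in Control. All Silica + ATL-III libraries were above all others. The log2 fold change was 0.35 ± 0.10 (edgeR adjusted p = 0.0337) against Silica and 0.49 ± 0.10 (edgeR adjusted p = 0.00819) against Control. Against Silica, Akt1 lost its call without Silica + ATL-III 1, Silica + ATL-III 2, Silica + ATL-III 3, Silica 2 or Silica 3 (edgeR adjusted p up to 0.131), and also with a fit of the 6 libraries compared, no expression filter and Silica 2 and Control 2 both left out (adjusted p up to 0.0733). Against Control it was lost without Control 3 (edgeR adjusted p = 0.0502). Akt2 stood at 11.97, 14.9 and 13.3 FPKM in Silica + ATL-III, 15.3, 14.4 and 14.3 in Silica and 14.6, 13.8 and 12.98 in Control, with overlap throughout and no call. Pdpk1, whose kinase activates AKT at the membrane, was at 7.68 to 9.90 FPKM and was not called. Among the AKT substrates, the forkhead transcription factor genes Foxo1 and Foxo3 and the glycogen synthase kinase gene Gsk3b were called in no comparison, at 2.93 to 5, 8.74 to 19.5 and 6.59 to 9.63 FPKM over the 9 libraries. Foxo3 was at 18.3, 19.5 and 10.5 FPKM in the Silica + ATL-III libraries. Foxo4, a further FOXO gene outside the 44, was more abundant per length on average than either. Foxo4 stood at 19.7, 22.9 and 20.9 FPKM in Silica + ATL-III, 15.02, 20 and 14.4 in Silica and 21.98, 18.6 and 20.3 in Control. It was higher in Silica + ATL-III than in Silica, at 0.38 ± 0.13 (edgeR adjusted p = 0.0491), with overlapping groups, and was not called in the other comparisons. Foxo4 lost this call without Silica + ATL-III 1, Silica + ATL-III 2, Silica + ATL-III 3, Silica 1 or Silica 3 (edgeR adjusted p up to 0.170), and also with limma on FPKM, a fit of the 6 libraries compared and scaling by library totals alone (adjusted p up to 0.0885). Foxo4 was named after its values were seen.

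FOXO factors bind a short forkhead motif, so the promoters of the 44 genes were searched for its letters TGTTTAC on both strands. RefSeq promoters of build GRCm38.p6, from 250 bases before to 50 after the start, were matched for 41 of the 44. The letters were in 4 of these genes (9.76%), Akt1, Pik3cg, Sesn1 and Stk11, against 4.05% of 27025 genes with a promoter in the table. A match is a description of the letters, not of binding. The 250 bases before the start are given for Akt1 and Pik3cg, the 2 genes with the letters upstream of a start. Both were called higher in Silica + ATL-III than in Control. Sesn1 (edgeR adjusted p = 0.584) and Stk11 (edgeR adjusted p = 0.0673), which hold the letters after the start, were not called there. The split differed in Silica + ATL-III against Silica. There Akt1 (edgeR adjusted p = 0.0337), Sesn1 (edgeR adjusted p = 0.0322) and Stk11 (edgeR adjusted p = 0.00650) were called higher. Pik3cg (edgeR adjusted p = 0.0690) was not. Any link between the letters and these calls was not tested. Capitals mark the motif, which begins 161 bases before the start in Akt1 (chr12:112674885-112675134, minus strand) and 92 before it in Pik3cg (chr12:32208471-32208720, minus strand), where it lies in the reverse orientation. Other starts listed for these genes lack it.
Akt1: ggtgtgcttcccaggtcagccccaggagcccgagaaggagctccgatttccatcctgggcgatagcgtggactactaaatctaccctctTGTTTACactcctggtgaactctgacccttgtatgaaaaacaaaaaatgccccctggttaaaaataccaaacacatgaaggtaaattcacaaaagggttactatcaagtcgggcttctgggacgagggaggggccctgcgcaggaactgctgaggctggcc
Pik3cg: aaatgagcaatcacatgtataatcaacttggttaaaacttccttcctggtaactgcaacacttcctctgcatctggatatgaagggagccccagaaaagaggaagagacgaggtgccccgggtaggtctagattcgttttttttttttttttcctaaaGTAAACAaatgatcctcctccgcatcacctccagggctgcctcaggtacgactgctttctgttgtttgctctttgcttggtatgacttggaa

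Tsc1 and Tsc2 encode the scaffold and the GTPase-activating subunit of the TSC complex, the main brake on mTOR complex 1. They were called in different comparisons. Tsc2 stood at 4.93, 5.69 and 5.44 FPKM in Silica + ATL-III, 3.97, 6.58 and 5.62 in Silica and 8.62, 8.25 and 9.71 in Control. Every Control library was above every library of both silica-treated groups, which overlapped each other. Tsc2 fell in Silica against Control, with a log2 fold change of -0.62 ± 0.15 (edgeR adjusted p = 0.0168), and in Silica + ATL-III against Control (-0.61 ± 0.15, edgeR adjusted p = 0.0149). Tsc2 lost the first call without Silica 3 or Control 3 (edgeR adjusted p up to 0.0733). The second was lost without Silica + ATL-III 1 or Control 3 (edgeR adjusted p up to 0.0678). The neighbouring gene Pkd1 lies on the opposite strand and shares 7.20% of the exonic bases of Tsc2 in GENCODE M21. Pkd1 was lower in Silica than in Control as well, with a log2 fold change of -0.97 ± 0.18 (edgeR adjusted p = 0.00725), and reads of the genes in their overlap cannot be told apart. Tsc1 stood at 3.72, 3.46 and 3.06 FPKM in Silica + ATL-III, 1.99, 2.99 and 2.61 in Silica and 3.27, 3.24 and 3.53 in Control. It was above Silica in every Silica + ATL-III library and overlapped Control, with a log2 fold change of 0.46 ± 0.13 (edgeR adjusted p = 0.0279) against Silica. Tsc1 lost this call without Silica + ATL-III 1, Silica + ATL-III 2, Silica 1 or Silica 3 (edgeR adjusted p up to 0.0912), and also with limma on FPKM and a fit of the 6 libraries compared (adjusted p up to 0.0793). Rheb stood at 12.2, 12.6 and 13 FPKM in Silica + ATL-III, 14.1, 11.2 and 10.3 in Silica and 10.02, 9.83 and 10.2 in Control. Rheb, the GTPase that TSC switches off, rose by 0.45 ± 0.13 (edgeR adjusted p = 0.0327) on the log2 scale in Silica + ATL-III against Control, with no overlap. Rheb lost this call without Silica + ATL-III 1, Silica + ATL-III 2, Silica + ATL-III 3, Control 1, Control 2 or Control 3 (edgeR adjusted p up to 0.103), and also with limma on FPKM, scaling by library totals alone and Silica 2 and Control 2 both left out (adjusted p up to 0.0895).

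Rragc and Rragd encode alternative partners in the Rag GTPase pair that carries mTOR complex 1 to the lysosome when amino acids are plentiful. They were the only 2 of the 43 genes that were called higher in Silica than in Control and lower in Silica + ATL-III than in Silica. Rragc stood at 18.9, 19.3 and 18.5 FPKM in Silica + ATL-III, 28.9, 22.95 and 25.7 in Silica and 18.8, 17.3 and 17.9 in Control. Silica stood above both other groups in every library. Rragc rose in Silica against Control by 0.63 ± 0.11 (edgeR adjusted p = 0.00532) on the log2 scale and fell in Silica + ATL-III against Silica, at -0.44 ± 0.11 (edgeR adjusted p = 0.0170). Rragd stood at 2.59, 3.44 and 3 FPKM in Silica + ATL-III, 5.01, 3.78 and 5 in Silica and 3.38, 3.29 and 3.29 in Control. Again all Silica libraries were highest. The log2 fold changes of Rragd were 0.57 ± 0.15 (edgeR adjusted p = 0.0274) in Silica against Control and -0.60 ± 0.15 (edgeR adjusted p = 0.0173) in Silica + ATL-III against Silica. Neither was called in Silica + ATL-III against Control, at 0.19 ± 0.11 (edgeR adjusted p = 0.282) for Rragc and -0.02 ± 0.15 (edgeR adjusted p = 0.943) for Rragd. In GENCODE M21, 7.90% of the exonic bases of Rragc are shared with 4930535I16Rik on the opposite strand. Silica is the shared group of the 2 comparisons, so a high Silica level alone gives both directions. Rragc lost its Silica + ATL-III against Silica call without Silica 1 (edgeR adjusted p = 0.0539), and Rragd without Silica + ATL-III 1, Silica 1 or Silica 3 (edgeR adjusted p up to 0.0700). Rragd lost its Silica against Control call without Silica 1, Silica 3, Control 1, Control 2 or Control 3 (edgeR adjusted p up to 0.0987), and also with limma on FPKM (adjusted p up to 0.0636).

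The promoters of this pair are shown because the genes moved together and because TFEB-type factors, which control lysosomal genes and act on Rragd, bind the E-box letters CACGTG. In the 250 bases before the start, Rragc (chr4:123917183-123917432, plus strand) holds these letters once, beginning 112 bases before the start and marked by capitals. Rragd (chr4:32982748-32982997, plus strand) does not hold them in this window. Over the full 300 bases, 6 of the 41 matched genes (14.6%) hold the letters, Eif4e, Eif4g1, Irs1, Irs2, Rheb and Rragc, against 8.09% of genes in the table. The third motif searched, TTGCATC for ATF4-type factors, was found in Pik3cd alone among the 41 (2.44%), against 2.89% of genes.
Rragc: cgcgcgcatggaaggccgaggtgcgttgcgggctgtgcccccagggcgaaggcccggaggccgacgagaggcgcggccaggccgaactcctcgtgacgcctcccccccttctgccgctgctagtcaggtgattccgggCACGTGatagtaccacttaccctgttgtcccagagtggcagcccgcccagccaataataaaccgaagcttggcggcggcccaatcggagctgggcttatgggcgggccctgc
Rragd: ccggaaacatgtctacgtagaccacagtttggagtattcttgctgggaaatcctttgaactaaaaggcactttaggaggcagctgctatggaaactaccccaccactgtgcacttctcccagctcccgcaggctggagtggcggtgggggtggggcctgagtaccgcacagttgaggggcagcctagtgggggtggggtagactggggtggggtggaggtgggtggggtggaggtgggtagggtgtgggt

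Most other genes of the lysosomal docking site came from the list of further pathway genes. With the Rag GTPases, the Ragulator scaffold (Lamtor1 to Lamtor5) and the folliculin group (Flcn, Fnip1 and Fnip2), 12 genes were tested, a grouping made after their values were seen. EdgeR called 7 of them higher and 0 lower in Silica against Control, where 9.11% of all genes were higher and 7.81% lower. Silica + ATL-III against Silica gave 0 higher and 5 lower, where 11.2% of all genes were higher and 10% lower, and Silica + ATL-III against Control gave 1 higher. Since the group was chosen on these values, its counts are a description. Fnip2, which encodes a partner of the RagC and RagD activator folliculin, averaged 3.88 ± 0.523 FPKM in Silica + ATL-III, 5.45 ± 0.749 in Silica and 2.83 ± 0.101 in Control, with log2 fold changes of 1.05 ± 0.14 (edgeR adjusted p = 0.00105) in Silica against Control and -0.47 ± 0.14 (edgeR adjusted p = 0.0297) in Silica + ATL-III against Silica. Lamtor1, the lipid-anchored subunit that holds Ragulator on the lysosome, averaged 13.7 ± 1.22, 20.3 ± 5.21 and 12.1 ± 0.706 FPKM in the same groups, and Lamtor3 averaged 13.1 ± 1.11, 18.02 ± 1.94 and 13.4 ± 0.901 (SD, n = 3). Lamtor2 and Lamtor4 were the remaining genes called higher in Silica, at 0.45 ± 0.13 (edgeR adjusted p = 0.0361) and 0.56 ± 0.18 (edgeR adjusted p = 0.0497). Rraga, at 19.9 to 26.7 FPKM, Flcn, at 11.1 to 16.1 FPKM, Rragb, Fnip1 and Lamtor5 were called in neither comparison, and Rraga and Rragb are close paralogs whose counts are uncertain. Lamtor3 lost its Silica against Control call without Silica 1 or Control 3 (edgeR adjusted p up to 0.0690). Lamtor2 lost it without Silica 1, Silica 3, Control 1, Control 2 or Control 3 (edgeR adjusted p up to 0.119), and also with limma on FPKM and scaling by library totals alone (adjusted p up to 0.0775). Lamtor4 lost it without Silica 1, Silica 3, Control 1, Control 2 or Control 3 (edgeR adjusted p up to 0.182), and also with limma on FPKM and scaling by library totals alone (adjusted p up to 0.103). Lamtor1 lost its Silica + ATL-III against Silica call without Silica + ATL-III 1, Silica + ATL-III 2, Silica 1 or Silica 3 (edgeR adjusted p up to 0.153), and also with limma on FPKM and a fit of the 6 libraries compared (adjusted p up to 0.0801). Lamtor3 lost that call without Silica + ATL-III 1, Silica + ATL-III 2, Silica 1 or Silica 3 (edgeR adjusted p up to 0.0820), and also with a fit of the 6 libraries compared (adjusted p up to 0.0540). Fnip2 lost that call without Silica + ATL-III 2, Silica + ATL-III 3, Silica 1 or Silica 3 (edgeR adjusted p up to 0.110), and also with a fit of the 6 libraries compared (adjusted p up to 0.0666). Macrophage markers moved in the same directions in 2 comparisons (8 of 10 higher in Silica than in Control, 4 of 10 lower in Silica + ATL-III than in Silica). In Silica + ATL-III against Control, 6 of 10 macrophage markers were higher, but only 1 of the 12 genes. The part of macrophages in these results was not tested.

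**Figure D4:**
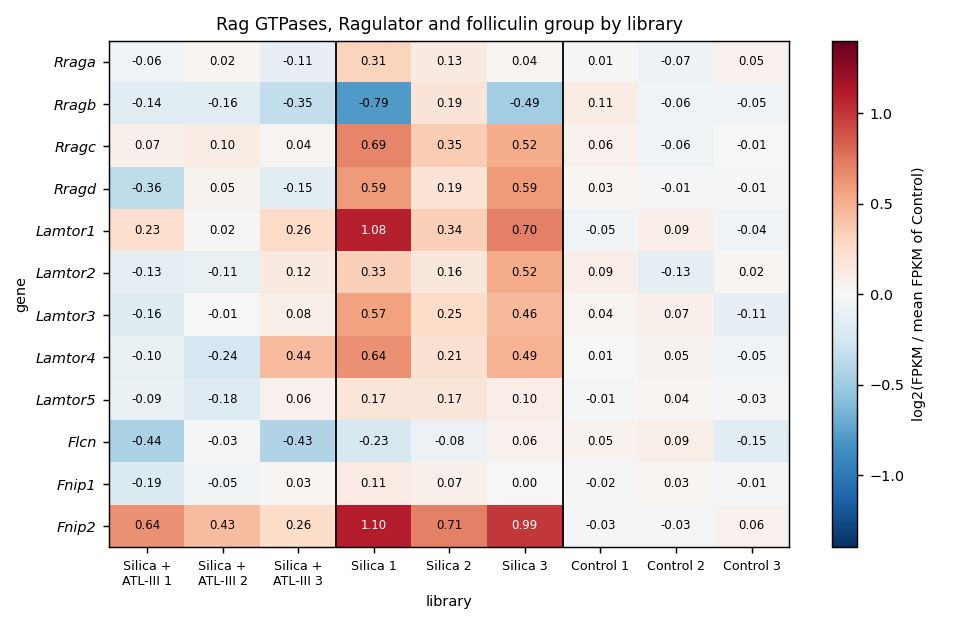
Log2 ratio of FPKM to the Control mean (colour and printed value) for 12 genes of the Rag, Ragulator and folliculin group, with libraries as columns from Silica + ATL-III on the left to Control on the right. Rragc is at 0.69, 0.35 and 0.52 in the Silica libraries and at 0.07, 0.10 and 0.04 in the Silica + ATL-III libraries; Silica 2 is the lowest Silica library for Rragc, Rragd, Lamtor1, Lamtor3 and Fnip2.

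The same branch includes the sestrins, some of which hold mTOR complex 1 back when leucine is low, and CASTOR1, which does so when arginine is low. Sesn1 stood at 18.01, 15.6 and 11.1 FPKM in Silica + ATL-III, 9.57, 11.8 and 10.3 in Silica and 13.2, 15.9 and 14.99 in Control. Sesn1 rose in Silica + ATL-III against Silica by 0.52 ± 0.15 (edgeR adjusted p = 0.0322) on the log2 scale, although Silica + ATL-III 3 lay below Silica 2. Sesn1 lost this call without Silica + ATL-III 1, Silica + ATL-III 2, Silica 1 or Silica 3 (edgeR adjusted p up to 0.122), and also with limma on FPKM and a fit of the 6 libraries compared (adjusted p up to 0.0827). Sesn3 stood at 2.11, 2.2 and 1.7 FPKM in Silica + ATL-III, 2.03, 3.22 and 2.66 in Silica and 3, 2.92 and 3.64 in Control. The Silica + ATL-III libraries were all below Control, with a log2 fold change of -0.55 ± 0.16 (edgeR adjusted p = 0.0325), and overlapped Silica. Sesn3 lost its call without Silica + ATL-III 1, Silica + ATL-III 3, Control 1 or Control 3 (edgeR adjusted p up to 0.136). Sesn2, which is also induced by stress, was at 2.89 to 5.95 FPKM and had log2 fold changes of 0.52 ± 0.18 (edgeR adjusted p = 0.0636) in Silica + ATL-III against Silica and 0.52 ± 0.18 (edgeR adjusted p = 0.0751) against Control, both short of the threshold. Castor1 was at 3.36 to 3.83 FPKM in Silica, against 5.11 to 5.92 in Control, without overlap, but missed the threshold (-0.52 ± 0.17, edgeR adjusted p = 0.0583), with only 88 to 151 counts per library.

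Ddit4 encodes REDD1, a stress- and glucocorticoid-induced protein that activates TSC. Ddit4 stood at 41.9, 55.1 and 21.5 FPKM in Silica + ATL-III, 22.6, 10.6 and 15.4 in Silica and 21.2, 16.6 and 27.96 in Control. This was the largest change among the 43 genes in Silica + ATL-III against Silica, at 1.29 ± 0.34 (edgeR adjusted p = 0.0195) on the log2 scale, yet Silica + ATL-III 3 lay below Silica 1. Ddit4 lost this call without Silica + ATL-III 1, Silica + ATL-III 2 or Silica 3 (edgeR adjusted p up to 0.0876). Against Control the log2 fold change was 0.97 ± 0.34 (edgeR adjusted p = 0.0736). Stk11 encodes LKB1, the kinase that activates AMPK. Stk11 stood at 24.7, 27.7 and 27.7 FPKM in Silica + ATL-III, 19.3, 20.7 and 20.5 in Silica and 24.4, 24.8 and 23.3 in Control. In FPKM, Silica was the lowest group, but its difference from Control was not called (-0.16 ± 0.09, edgeR adjusted p = 0.217). Silica + ATL-III lay above Silica in every library, with a log2 fold change of 0.43 ± 0.09 (edgeR adjusted p = 0.00650). That call held without each of the 6 libraries in turn. In GENCODE M21, 5.07% of the exonic bases of Stk11 are shared with Cbarp on the opposite strand. The catalytic AMPK subunits are encoded by Prkaa1, the widespread form, and Prkaa2, the form abundant in muscle. Prkaa1 was at 16.2 to 18.8 FPKM and called in no comparison. Prkaa2 stood at 3.69, 4.53 and 3.48 FPKM in Silica + ATL-III, 4.38, 5.17 and 4.46 in Silica and 6.04, 5.79 and 6.08 in Control. Prkaa2 fell in Silica + ATL-III against Control, at -0.50 ± 0.11 (edgeR adjusted p = 0.0116) on the log2 scale, with no overlap. It lost the call without Silica + ATL-III 1 (edgeR adjusted p = 0.0527). Of 10 heart, skeletal and smooth muscle markers, 9 were tested and 8 were lower in Silica + ATL-III than in Control, with sums of 69.9 to 113 FPKM against 161 to 170, and their part in this result was not tested.

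Eif4ebp1 and Eif4ebp2 encode the repressors that hold the cap-binding protein eIF4E until mTOR complex 1 phosphorylates them. Eif4ebp1 stood at 10.4, 10.5 and 11.3 FPKM in Silica + ATL-III, 7.17, 5.12 and 5.25 in Silica and 5.07, 5.11 and 5.7 in Control. All Silica + ATL-III libraries exceeded all others. Eif4ebp1 rose by 0.89 ± 0.16 (edgeR adjusted p = 0.00251) on the log2 scale against Silica and by 1.14 ± 0.16 (edgeR adjusted p = 0.000558) against Control, and both calls held whichever single library was left out. Eif4ebp2 stood at 14.1, 16.7 and 11.3 FPKM in Silica + ATL-III, 9.75, 10.96 and 10.4 in Silica and 11.2, 12.01 and 12.3 in Control. In FPKM, Control overlapped Silica + ATL-III and lay above Silica, but Silica was not called against Control (-0.09 ± 0.13, edgeR adjusted p = 0.634). Eif4ebp2 rose by 0.45 ± 0.13 (edgeR adjusted p = 0.0240) in Silica + ATL-III against Silica, without overlap. Eif4ebp2 lost this call without Silica + ATL-III 1, Silica + ATL-III 2, Silica 1 or Silica 3 (edgeR adjusted p up to 0.0976), and also with limma on FPKM and a fit of the 6 libraries compared (adjusted p up to 0.0596). Their target Eif4e was at 11.5 to 14.5 FPKM and the scaffold gene Eif4g1 at 16.5 to 24.6 FPKM, and neither was called in any comparison. Rps6kb2 encodes ribosomal S6 kinase 2, another mTOR complex 1 substrate. Rps6kb2 stood at 5.24, 5.9 and 6.4 FPKM in Silica + ATL-III, 4.08, 4.73 and 4.32 in Silica and 6.99, 7.33 and 6.77 in Control. In FPKM the groups did not overlap, with Silica lowest and Control highest. Silica + ATL-III was not called against Control, at -0.15 ± 0.11 (edgeR adjusted p = 0.395) on the log2 scale. Rps6kb2 fell in Silica against Control, at -0.59 ± 0.11 (edgeR adjusted p = 0.00624), and was higher in Silica + ATL-III than in Silica, at 0.44 ± 0.11 (edgeR adjusted p = 0.0145). The second call was lost without Silica 3 (edgeR adjusted p = 0.0525). In GENCODE M21, Ptprcap on the opposite strand shares 23.7% of the exonic bases of Rps6kb2, and Ptprcap was listed at 0 to 0.04 FPKM in these libraries. Rps6kb1, the main S6 kinase gene, was at 8.71 to 11.5 FPKM and was not called in any comparison.

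Shares within gene families do not depend on scaling between libraries. They were computed from summed FPKM in each library (mean ± SD, n = 3) and compared by an exact two-sided permutation test, which cannot go below p = 0.1 with 3 against 3. The leukocyte-type subunits Pik3cd and Pik3cg made up 32.0 ± 2.67% in Silica + ATL-III, 20.5 ± 2.78% in Silica and 16.7 ± 3.94% in Control of the 4 catalytic subunit transcripts. All Silica + ATL-III libraries were above all others (exact p = 0.1 against each), and Silica overlapped Control (exact p = 0.3). The difference of 3.77 percentage points between Silica and Control became 2.17 without Silica 2, 2.19 without Control 1 and 5.98 without Control 2. Akt1 made up 66.0 ± 1.48% in Silica + ATL-III, 58.4 ± 1.34% in Silica and 59.3 ± 1.85% in Control of the AKT pair, again with Silica + ATL-III above all other libraries (exact p = 0.1 against each). The share of Prkaa1 in the AMPK pair was 81.6 ± 2.75% in Silica + ATL-III, 79.5 ± 1.94% in Silica and 74.1 ± 1.26% in Control. Here both silica-treated groups were above Control without overlap (exact p = 0.1 each). Eif4ebp1 made up 43.8 ± 5.80% in Silica + ATL-III, 35.9 ± 5.65% in Silica and 30.9 ± 0.942% in Control of the repressor pair, without overlap with Control in either case, while the silica-treated groups overlapped (exact p = 0.2). The Eif4ebp1 difference of 5.03 percentage points between Silica and Control became 1.81 without Silica 1 and 3.14 in shares of raw counts. The difference of 7.82 points between Silica + ATL-III and Silica became 4.67 without Silica + ATL-III 3, and the 12.9 points between Silica + ATL-III and Control became 8.42 in shares of raw counts. The remaining shares moved by at most 3.35 percentage points between groups, with no overlap for Foxo1 and Rragd in Silica + ATL-III against Control (exact p = 0.1 each). That Rragd difference of -1.88 points became -1.05 without Silica + ATL-III 1. Pik3r1 made up 50.6 ± 2.49% in Silica + ATL-III, 48.2 ± 2.26% in Silica and 47.9 ± 0.817% in Control of its family, Foxo1 20.9 ± 0.870% in Silica + ATL-III, 23.8 ± 5.30% in Silica and 24.2 ± 0.753% in Control of Foxo1 and Foxo3 (Foxo4 is not in this share), and Rragd 13.7 ± 1.57% in Silica + ATL-III, 15.1 ± 1.10% in Silica and 15.6 ± 0.378% in Control of Rragc and Rragd. Over the 21 comparisons in 7 families no exact p could pass 0.05.

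**Figure D5:**
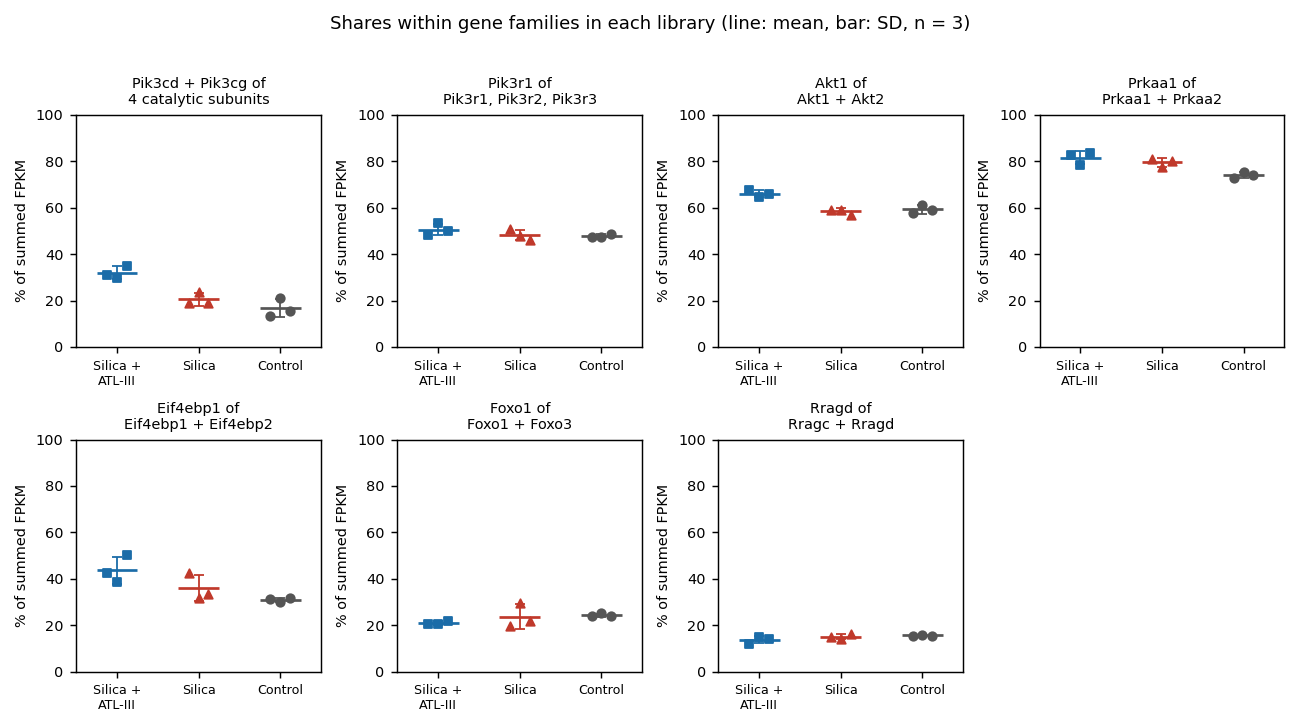
Share of summed FPKM (y axis, 0 to 100%) taken by the named genes within 7 families in each library of Silica + ATL-III, Silica and Control, with the mean as a line and the SD as a bar (n = 3). The Pik3cd and Pik3cg share and the Akt1 share are highest in all 3 Silica + ATL-III libraries, at no less than 29.9% and 64.6%.

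A further 59 pathway genes outside the 44 were read from the same fit, of which 58 were tested. Against Control, Silica had 7 higher and 5 lower (7 and 7 by DESeq2, 5 and 10 with library totals alone), or 20.7%, near the 16.9% of all genes tested. Against Silica, Silica + ATL-III had 8 higher and 5 lower, or 22.4%, near the 21.2% of all genes. Against Control, Silica + ATL-III had 4 higher and 6 lower, or 17.2%, near the 15.9% of all genes. Lower calls in Silica against Control became 8 without Silica 2, 3 without Control 1 and 1 without any other of the 6 libraries, and higher calls became 4 without Silica 1 or Control 3. Against Silica, higher calls of Silica + ATL-III became 5 without Silica 3, and lower calls became 3 without Silica + ATL-III 1 and 2 without Silica + ATL-III 2, Silica 1 or Silica 3. Against Control, higher calls became 2 without any 1 of the Control libraries, and lower calls became 3 without Control 1 or Control 2. Igf1r, the insulin-like growth factor receptor, averaged 7.48 ± 1.56 FPKM in Silica + ATL-III, 3.76 ± 0.720 in Silica and 6.19 ± 0.341 in Control. It was lower in Silica than in Control, at -0.63 ± 0.15 (edgeR adjusted p = 0.0210), and higher in Silica + ATL-III than in Silica, at 1.02 ± 0.16 (edgeR adjusted p = 0.00114). Igf1r lost the first of these calls without Silica 1, Silica 3, Control 2 or Control 3 (edgeR adjusted p up to 0.0900). The insulin receptor gene Insr was higher in Silica + ATL-III than in Silica as well, at 0.56 ± 0.12 (edgeR adjusted p = 0.00686). Of 10 endothelial markers 5 were higher and 1 lower in Silica + ATL-III than in Silica, and 0 were higher and 4 lower in Silica than in Control. Their sums were 373 to 468 FPKM in Silica + ATL-III, 265 to 352 in Silica and 438 to 466 in Control, and their part in these results was not tested.

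Negative regulators of PI3K among these genes differed in direction. Pik3ip1, a membrane inhibitor of the catalytic subunit, averaged 9.22 ± 1.75 FPKM in Silica + ATL-III, 4.99 ± 0.451 in Silica and 6.02 ± 0.555 in Control, with log2 fold changes of 0.90 ± 0.14 (edgeR adjusted p = 0.00140) against Silica and 0.73 ± 0.14 (edgeR adjusted p = 0.00460) against Control. The phosphatase gene Inpp4b averaged 0.937 ± 0.101, 2.54 ± 0.532 and 2.56 ± 0.296 FPKM in the same groups and fell against both, at -1.41 ± 0.15 (edgeR adjusted p = 0.000201) and -1.33 ± 0.15 (edgeR adjusted p = 0.000175), the smallest adjusted p of the 58 genes in each. Its relative Inpp4a was higher in Silica + ATL-III than in Silica, at 0.48 ± 0.09 (edgeR adjusted p = 0.00349). Pik3ap1, an adaptor that brings PI3K to B cell and Toll-like receptors, averaged 6.22 ± 0.175, 9.74 ± 0.549 and 6.21 ± 0.794 FPKM. It was higher in Silica than in Control, at 0.75 ± 0.11 (edgeR adjusted p = 0.00189), and lower in Silica + ATL-III than in Silica, at -0.63 ± 0.11 (edgeR adjusted p = 0.00242). All of these calls held without each library in turn.

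Sgk1, an AKT-related kinase downstream of mTOR complex 2 that glucocorticoids induce, was higher than in Control in both silica-treated groups, at 0.82 ± 0.19 (edgeR adjusted p = 0.0114) in Silica + ATL-III and 1.02 ± 0.19 (edgeR adjusted p = 0.00612) in Silica. Grb10, an adaptor that dampens insulin signalling, was lower than in Control in both, at -0.58 ± 0.10 (edgeR adjusted p = 0.00280) and -0.41 ± 0.10 (edgeR adjusted p = 0.0223). Prkab2, a regulatory AMPK subunit abundant in muscle, was lower in both, at -0.48 ± 0.12 (edgeR adjusted p = 0.0179) and -0.65 ± 0.12 (edgeR adjusted p = 0.00624). Of the 9 muscle markers tested, 8 were lower than in Control in each, with sums of 69.9 to 113 FPKM in Silica + ATL-III, 85.6 to 96.9 in Silica and 161 to 170 in Control, and their part was not tested. Telo2, which stabilises mTOR-type kinases, was lower in Silica + ATL-III than in Control at -0.74 ± 0.14 (edgeR adjusted p = 0.00471). Pik3c3, the class III PI3K of autophagy, was higher in Silica + ATL-III than in Control at 0.43 ± 0.11 (edgeR adjusted p = 0.0162). Against Silica it was higher as well, at 0.36 ± 0.11 (edgeR adjusted p = 0.0326). Grb10 lost its Silica against Control call without Silica 1, Silica 3, Control 2 or Control 3 (edgeR adjusted p up to 0.0844), and also with Silica 2 and Control 2 both left out (adjusted p up to 0.0718). Sgk1 lost its Silica + ATL-III against Control call without Control 3 (edgeR adjusted p = 0.0563), and Prkab2 without Silica + ATL-III 1, Silica + ATL-III 3, Control 1 or Control 2 (edgeR adjusted p up to 0.0764). Pik3c3 lost its call against Control without Silica + ATL-III 2, Control 1, Control 2 or Control 3 (edgeR adjusted p up to 0.0679), and also with limma on FPKM, scaling by library totals alone and Silica 2 and Control 2 both left out (adjusted p up to 0.0637). Its call against Silica was lost without Silica + ATL-III 2, Silica + ATL-III 3, Silica 1, Silica 2 or Silica 3 (edgeR adjusted p up to 0.124). That call was also lost with a fit of the 6 libraries compared, no expression filter and Silica 2 and Control 2 both left out (adjusted p up to 0.0987). Fnip2 was higher in Silica + ATL-III than in Control as well, at 0.57 ± 0.14 (edgeR adjusted p = 0.0158), a call lost without Silica + ATL-III 1, Control 1 or Control 2 (edgeR adjusted p up to 0.0586), and also with limma on FPKM (adjusted p up to 0.0599).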

How the data were processed

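Poly(A) RNA from 9 mouse lung samples, 3 per group, was analysed from 1 table. The authors deposited raw read counts and FPKM per gene and sample, per the file headers. The deposited FPKM could be recomputed from the counts, gene length and library totals within 0.006. The submitters' processing notes name cutadapt 1.9.1, HISAT2 2.0.1, HTSeq 0.6.1 and mm10. The strand setting of the counting is unknown here, so a gene and its antisense partner cannot be told apart where they overlap.

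Genes with at least 1 FPKM in at least 3 libraries were fitted on the deposited counts with edgeR 4.0.16 (R 4.3.3; TMM scaling, quasi-likelihood F test, 1 fit of the 3 group means over all 9 libraries with 6 residual degrees of freedom). P-values were adjusted by Benjamini-Hochberg over all genes tested and called at 0.05. Errors of log2 fold changes are standard errors. The fit was tested on simulated data. Alternatives used DESeq2 1.42.0, limma 3.58.1 on log2(FPKM + 0.5) and log2(FPKM + 0.1), other scalings and filters, only the 6 libraries compared, the replicate number as a block, and each library left out.

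All 44 genes could be named, with values per library for those called in at least 1 comparison and for Mtor, Rptor, Rictor, Tsc1, Tsc2, Akt1, Akt2 and Rheb. Of the further pathway genes, the up to 4 with the smallest adjusted p in each direction and comparison were named, except 1 that is not reported here. The pathway genes and marker lists were chosen with earlier results of these data known.

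Promoter sequences came from RefSeq (GRCm38.p6), and exon overlaps from GENCODE M21.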

Additional observations from a re-analysis of the deposited data

How the results depend on the processing

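Of 33 calls among the 44 pathway genes, 11 held whichever single library was left out, and 23 held in every other setting except the replicate block. Called higher without 1 library were 2 to 6 of them in Silica against Control, 4 to 14 in Silica + ATL-III against Silica and 4 to 11 in Silica + ATL-III against Control, and called lower were 1 to 4 in each. Among the further pathway genes the ranges were 4 to 7, 5 to 9 and 2 to 6 higher, and 1 to 8, 2 to 6 and 3 to 5 lower. Limma on FPKM gave 7 higher in Silica + ATL-III against Silica, and 7 lower with 2 further genes higher in Silica + ATL-III against Control, with either pseudocount. With only the 6 libraries compared, Silica + ATL-III against Silica gave 6 higher, and 5 higher and 2 lower further genes. With no filter, 11 were higher in Silica + ATL-III against Control. With library totals alone, 10 further genes were lower in Silica against Control, and the median of all genes moved to -0.11 there and to -0.13 in Silica + ATL-III against Control. Leaving out Silica 2 and Control 2, chosen after seeing the data, gave 4 higher and 2 lower in Silica against Control, 9 and 3 in Silica + ATL-III against Silica, and 6 and 4 in Silica + ATL-III against Control. The causes were not tested.

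Deviations of same-numbered samples from their group means correlated at -0.133 to 0.120, and 1 of 9 pairs was over 0.1. For samples with different numbers the range was -0.136 to 0.126. With 3 libraries per group the deviations are tied to one another, so these values cannot decide whether the numbers pair the samples. With the number as a block, 4 higher and 2 lower were called in Silica against Control, 10 and 3 in Silica + ATL-III against Silica, and 6 and 4 in Silica + ATL-III against Control. The block ended 4 of 33 calls and turned none.

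Some differences that were never called changed sign. Tsc2 in Silica + ATL-III against Silica was at -0.010 with library totals alone, and ranged from -0.14 to 0.16 without 1 library, below 0 without Silica 1, Silica + ATL-III 2 (-0.025) or Silica + ATL-III 3 (-0.00096). Akt2 in Silica + ATL-III against Control was at -0.044 with library totals, -0.044 and -0.046 by limma, and ranged from -0.0018 to 0.17 without 1 library. Mtor in that comparison was at -0.030 with library totals and -0.031 and -0.037 by limma. Rictor there was at 0.0037 with edgeR's own filter, and ranged from -0.094 to 0.024 without 1 library. Rptor in Silica against Control ranged from -0.12 to 0.0010. Share differences in Silica against Control ranged, in percentage points without 1 library, from -0.888 to 1.34 for Pik3r1, -1.76 to 0.0662 for Akt1 and -3.49 to 1.49 for Foxo1 (0.577 without Silica 3). For Foxo1 in Silica + ATL-III against Silica the range was -4.84 to 0.143.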
